A study of Mus musculus with 125 samples.

Results

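Single mouse embryos at the 2-cell stage were profiled by RNA sequencing in both directions of a cross between the inbred strains C57BL/6 and JF1/Ms, and the embryos with 2 pronuclei (2PN) of the 2 directions were compared. The group named J2PN held the 21 embryos labelled 2PN of the cross JF1/Ms x C57BL/6, and the group named B2PN held the 43 embryos labelled 2PN of the cross C57BL/6 x JF1/Ms, together 64 of the 125 libraries of the series. Membership followed the column names and the labels for strain and embryo type, and 1 further J2PN library, labelled low quality, was left out. Both groups shared the whole treatment: at 10 h after fertilization zygotes were picked and their second polar body was taken out with a micromanipulator, and the embryos were lysed at 34 h, with a SMART-Seq v4 Ultra Low Input kit and a Nextera XT kit used for the libraries. The labels carry no transgene, deletion or drug. The mother's strain is not stated for either direction, and the protocol text names the cross C57BL/6 x JF1/Ms for every zygote, so the direction of J2PN rests on the strain label and the title. Shared parentage among the embryos is not stated either, and p-values below measure only the spread between these embryos.

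A 2-cell mouse embryo holds RNA from 2 sources. Much of it was stored in the egg and is being degraded, and the rest comes from the embryo's own genome, which switches on strongly at this stage with a burst of stage-specific genes and repeat-derived transcripts. Reciprocal hybrids carry the same pair of strain autosomes, but the strain that gives the egg, with its cytoplasm, stored RNA and mitochondria, is exchanged. So is the parent from which each allele of an imprinted gene comes. In males the strains of the X and Y chromosomes are exchanged as well. JF1/Ms derives from Japanese mice of the subspecies Mus musculus molossinus and differs from the mainly Mus musculus domesticus genome of C57BL/6 at many sequence positions.

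The promoters of the genes on which the comparison turned most clearly are shown first, as 300 bases from 250 before to 50 after the annotated start, with every CG in capitals, because CG dinucleotides are where DNA methylation sits in mammals. The sequences are RefSeq's reference for build GRCm38.p6, written 5' to 3' on the gene's own strand, and say nothing of JF1/Ms alleles. Prox1 (chr1:190170778-190171077, minus strand) and Bfsp1 (chr2:143863124-143863423, minus strand) were higher in J2PN embryos. Hsd17b13 (chr5:103977339-103977638, minus strand) and Plekha8 (chr6:54594861-54595160, plus strand) were lower.
Prox1: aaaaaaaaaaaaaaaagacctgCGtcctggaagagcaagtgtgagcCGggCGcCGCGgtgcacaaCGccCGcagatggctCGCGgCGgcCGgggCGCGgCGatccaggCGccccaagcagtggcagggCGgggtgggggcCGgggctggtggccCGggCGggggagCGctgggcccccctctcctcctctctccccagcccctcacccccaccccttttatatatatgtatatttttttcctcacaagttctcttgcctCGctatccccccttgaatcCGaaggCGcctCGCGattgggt
Bfsp1: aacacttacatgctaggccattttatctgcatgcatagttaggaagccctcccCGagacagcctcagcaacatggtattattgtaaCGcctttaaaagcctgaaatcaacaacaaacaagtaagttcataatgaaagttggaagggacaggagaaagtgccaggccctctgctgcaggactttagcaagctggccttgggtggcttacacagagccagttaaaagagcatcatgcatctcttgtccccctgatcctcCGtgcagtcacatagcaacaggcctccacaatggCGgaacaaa
Hsd17b13: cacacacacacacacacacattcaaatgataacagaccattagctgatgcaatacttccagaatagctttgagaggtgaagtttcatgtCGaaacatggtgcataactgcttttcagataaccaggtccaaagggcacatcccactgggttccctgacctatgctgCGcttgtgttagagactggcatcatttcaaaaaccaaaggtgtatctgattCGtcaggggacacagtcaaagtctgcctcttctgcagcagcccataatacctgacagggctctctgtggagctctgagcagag
Plekha8: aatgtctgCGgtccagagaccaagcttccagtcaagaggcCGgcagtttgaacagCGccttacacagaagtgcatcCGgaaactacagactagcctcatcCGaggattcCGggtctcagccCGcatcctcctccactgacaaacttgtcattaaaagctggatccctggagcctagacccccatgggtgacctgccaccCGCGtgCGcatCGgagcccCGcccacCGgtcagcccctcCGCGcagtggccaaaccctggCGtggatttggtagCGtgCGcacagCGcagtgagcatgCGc
The motif CG was counted once per site, since it reads the same on both strands. It stood 25 times in the Prox1 promoter and 20 times in the Plekha8 promoter, against 4 times for Bfsp1 and 3 times for Hsd17b13. Over 26794 mouse promoters of this length the median was 7, and 94.3% held at least 1. Among these 4 genes each direction thus held a promoter rich and a promoter poor in CG. Prox1 and Plekha8 each have 2 starts in the RefSeq table, of which 1 is shown. The single start listed for Bfsp1 lies 52046 bases inside the gene's annotated range, whose upstream end is at 143915219, whereas the other 3 starts shown stand at the end of their gene. The hairpin gene Mir5128 was also among the genes highest in J2PN embryos relative to B2PN embryos. Its mature miRNA lies at chr2:37688212-37688234 on the minus strand and is shown with the seed, bases 2 to 8, in capitals.
mmu-miR-5128: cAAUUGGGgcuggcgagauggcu
Kits of this type prime on poly(A) tails, so counts at the Mir5128 locus do not measure the mature miRNA.

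The J2PN libraries were shallower. Total gene counts averaged 2333070 ± 945526 in J2PN embryos (SD, n = 21), ranging between 533116 and 3925200, and 3817840 ± 648426 in B2PN embryos (SD, n = 43), ranging between 1691273 and 4887190. At least 2000000 counts were reached by 14 of 21 J2PN and 42 of 43 B2PN libraries, and each result was also fitted in these alone. Depth was still unequal there, with mean totals of 2877790 in J2PN and 3868470 in B2PN embryos. Genes with at least 1 count averaged 16745 in J2PN and 19448 in B2PN embryos, and still 14053 and 15249 after all libraries were thinned to 533116 counts (permutation test, 2-sided, adjusted p = 2.67e-05 over 4 measures). J2PN embryos were less alike. Their mean spread, taken as 1 minus Spearman's rho between an embryo and the mean of the others of its group, was 0.161 against 0.0974 in B2PN embryos (permutation test, 2-sided, adjusted p = 2.5e-05 over 5 measures), and 0.130 against 0.0943 in libraries of at least 2000000 counts (adjusted p = 0.0162). The medians there were closer, at 0.104 and 0.0879. After thinning to equal depth the means were 0.175 and 0.118. The mean of the others is taken over fewer embryos in J2PN, and how much this adds to their spread was not tested. The number of cells and the RNA per cell cannot be told apart in a lysed embryo, although all were collected at the 2-cell stage. Library totals do not show whether either differed between the groups.

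Before the results, 5 libraries were found to stand apart, with a spread over the upper fence of their own group. They were J2PN embryos 8 and 21, with spreads of 0.315 and 0.374 against a fence of 0.285, and B2PN embryos 1, 27 and 30, with 0.168, 0.174 and 0.221 against a fence of 0.139. B2PN embryo 30 also went against its label. Levels here and below are CPM, a gene's counts scaled by its library's total. Snrpn, which is expressed from the paternal allele, stood at 2.37 CPM there, against 28.03 to 150 CPM in the other B2PN embryos and 2.38 to 64.996 CPM in C57BL/6 parthenotes, which have no paternal genome. The paternally expressed genes Mcts2 and Zrsr1 were at 0 counts in embryo 30, where the other B2PN embryos had at least 11.4 and 7.47 CPM. It held 1691273 counts and so was already absent from the fit of libraries of at least 2000000 counts. Leaving out embryo 30 kept 5852 of the 6016 calls given below in the same direction (97.3%), and leaving out all 5 libraries kept 5332 (88.6%).

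Across the genome, J2PN and B2PN embryos differed at a large share of genes, in both directions and at all levels of expression. Of 14392 genes tested with edgeR's quasi-likelihood test, 2964 were higher in J2PN embryos (20.6%) and 3052 were lower (21.2%), 41.8% in all, at a Benjamini-Hochberg adjusted p under 0.05. The median change among the called genes was 1.14 on the log2 scale for those higher and 1.21 for those lower. At least 4-fold changes were found for 422 genes higher and 624 genes lower, and at least 16-fold changes for 42 and 98. The median over all genes tested was -0.04. In libraries of at least 2000000 counts, 15155 genes were tested, of which 2703 were higher (17.8%) and 2640 lower (17.4%), and 4377 of the 6016 calls (72.8%) were made again in the same direction. With limma voom and quality weights, which change the test and the weight of each library together, the split was 2140 higher (14.9%) and 3963 lower (27.5%), with a shift of -0.20 in the median of all genes. Over the same 14392 genes DESeq2 gave 3142 higher and 3239 lower, with a shift of 0.02. After thinning to equal depth the split was 2129 higher and 1463 lower of 7768 genes tested, with a shift of 0.14. Genes called in the same direction in all of the edgeR fit, the fit of at least 2000000 counts and voom numbered 1697 higher and 2087 lower.

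**Figure D1:**
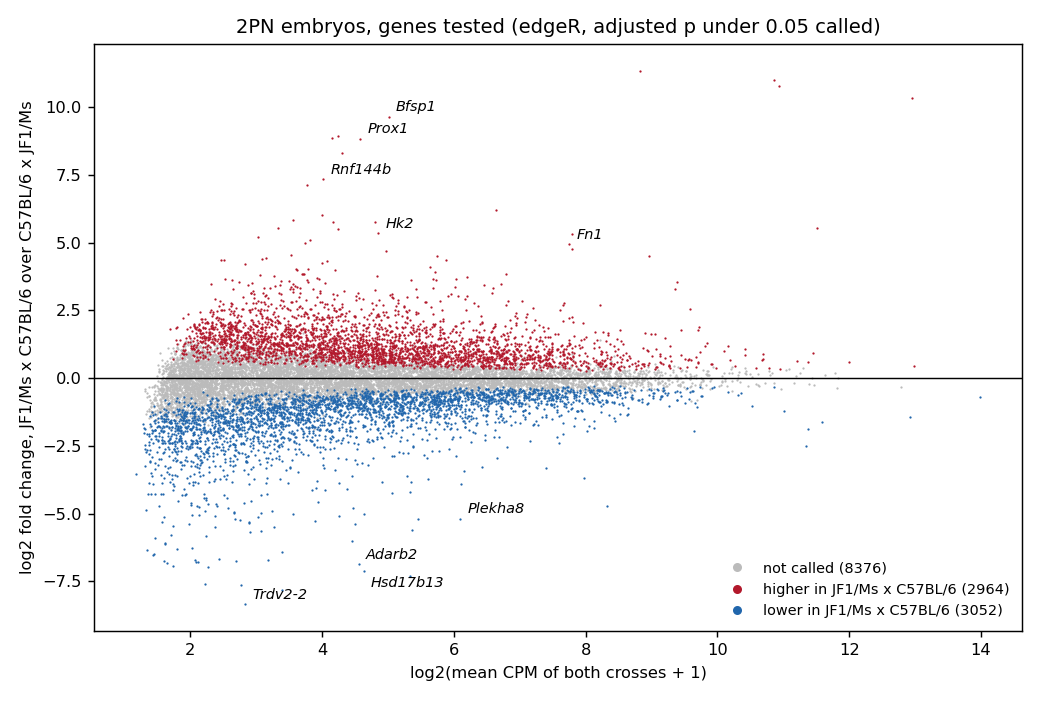
Log2 fold change of each of the 14392 genes tested (vertical axis, J2PN over B2PN) against the log2 of the mean CPM of both crosses plus 1 (horizontal axis), with 1 point per gene, red for the 2964 called higher and blue for the 3052 called lower in JF1/Ms x C57BL/6. Called genes spread over the whole range of levels, and the largest changes, such as Bfsp1 at 9.65 and Trdv2-2, which had no count in J2PN embryos, lie far outside the grey band.

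Genes nearly silent in B2PN embryos and present in every J2PN embryo led the genes that were higher. Prox1, a prospero homeobox transcription factor known from lymphatic vessels, liver and lens (chromosome 1, 190118035 to 190170827, GRCm38.p6), had a lowest, median and highest level of 7.20, 30.3 and 304 CPM in J2PN embryos and of 0, 0 and 1.06 CPM in B2PN embryos. The groups did not overlap: Prox1 had a count in all 21 J2PN embryos and in 5 of 43 B2PN embryos. Its log2 fold change was 8.84 ± 0.42 (SE; edgeR quasi-likelihood test, adjusted p = 1.09e-28), and 8.84 in libraries of at least 2000000 counts. Bfsp1, a beaded filament protein of the lens (chromosome 2, 143826528 to 143915219), reached 0.267, 49.9 and 279 CPM in J2PN embryos and 0, 0 and 1.95 CPM in B2PN embryos, a log2 fold change of 9.65 ± 0.49 (edgeR, adjusted p = 2.85e-27). It was found in 21 of 21 J2PN and 2 of 43 B2PN embryos, and only the lowest J2PN embryo reached into the B2PN range. Prox1 and Bfsp1 belong to a list drawn up with earlier results of these crosses known, so their place at the head is not independent evidence.

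Further transcription and signalling genes had the same all-or-little pattern. Nfic, a nuclear factor I transcription factor, had 4.64, 19.7 and 142 CPM in J2PN embryos and at most 3.17 CPM in B2PN embryos, with a log2 fold change of 6.04 ± 0.47 (edgeR, adjusted p = 1.28e-17) and no overlap of the groups. Rnf144b, an E3 ubiquitin ligase of the RBR class, had 2.13, 25.01 and 134 CPM in J2PN and at most 2.25 CPM in B2PN embryos (7.34 ± 0.45), so that single embryos met at the border. Hk2, the hexokinase that starts glucose breakdown in many tumours and muscle, had 9.07, 30.5 and 169 CPM in J2PN and 0, 0.496 and 13.5 CPM in B2PN embryos, with a log2 fold change of 5.35 ± 0.45. The matrix protein fibronectin, Fn1, had 21.2, 154 and 2892 CPM in J2PN embryos, against 0, 5.12 and 132 CPM in B2PN embryos (4.95 ± 0.50). Itga10, an integrin alpha chain of the collagen receptors, had 8.03, 43.5 and 247 CPM against at most 11.05 CPM in B2PN embryos (4.70 ± 0.36). Fn1 lay above every B2PN embryo in 15 of 21 J2PN embryos, Itga10 in 19 and Hk2 in 17. Counts at Mir5128 were 1.33, 29.9 and 294 CPM in J2PN and 0, 0.455 and 5.91 CPM in B2PN embryos (5.75 ± 0.43). The other members of the 12 largest increases were Sntb1 (a syntrophin of the dystrophin complex, 5.84), Dgkb (a diacylglycerol kinase, 5.78), St6galnac3 (a sialyltransferase, 5.08) and Syt9 (a synaptotagmin, 4.98), with J2PN medians between 11.4 and 20.96 CPM and B2PN medians of 0 CPM.

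The genes that were lower by most were detected in 35 to 43 of the 43 B2PN embryos, at levels that varied among them. In J2PN embryos they were absent or at low levels. Plekha8, a glycolipid transfer protein of the Golgi (chromosome 6, 54595111 to 54645823), had a lowest, median and highest level of 0, 0.869 and 20.2 CPM in J2PN embryos and of 55.6, 120.999 and 236 CPM in B2PN embryos, a log2 fold change of -5.19 ± 0.38 (edgeR quasi-likelihood test, adjusted p = 7.98e-19). Plekha8 had a count in 17 of 21 J2PN embryos, and the highest of these lay below the lowest B2PN embryo. Hsd17b13, a lipid droplet dehydrogenase known from liver (chromosome 5, 103955442 to 103977388), had 0, 0 and 3.28 CPM in J2PN and 3.34, 39.7 and 185 CPM in B2PN embryos, again without overlap (-7.11 ± 0.49, adjusted p = 9.70e-20). Xdh, xanthine dehydrogenase of purine breakdown, was found in 2 of 21 J2PN and 43 of 43 B2PN embryos and had a log2 fold change of -6.43 ± 0.50. Adarb2, a brain relative of the RNA-editing deaminases, had 0, 0 and 7.18 CPM in J2PN and 1.49, 35.4 and 236 CPM in B2PN embryos (-6.86 ± 0.59). Apobec1, the cytidine deaminase that edits the Apob mRNA, had at most 2.07 CPM in J2PN and 0, 14.04 and 60.2 CPM in B2PN embryos (-5.48 ± 0.55). Trdv2-2, a variable segment of the T-cell receptor delta chain on chromosome 14, had no count in any J2PN embryo and a median of 9.14 CPM in B2PN embryos, where 42 of 43 held it. Against a floor of 3 counts over the whole J2PN group it was at least 199-fold lower, a limit that covers counting error only. Others of the 12 were Fcgbp (an IgG-binding mucin-like protein, -5.67), Pdzph1 (a protein with PDZ and pleckstrin homology domains, -5.63), Prr32 on the X chromosome (-5.34, with 0, 5.61 and 116 CPM in B2PN embryos), the non-coding Igf1os (-5.31) and Sspn (sarcospan of the dystrophin complex, -5.25). Igf1os is named as the opposite strand of Igf1, and since no source used here gives the use of strand in counting, its reads and those of Igf1 cannot be told apart. All J2PN counts of Prr32 came from embryo 8 and all J2PN counts of Sspn from embryo 21, both libraries that stand apart, and without them neither gene had a count in a J2PN embryo.

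**Figure D2:**
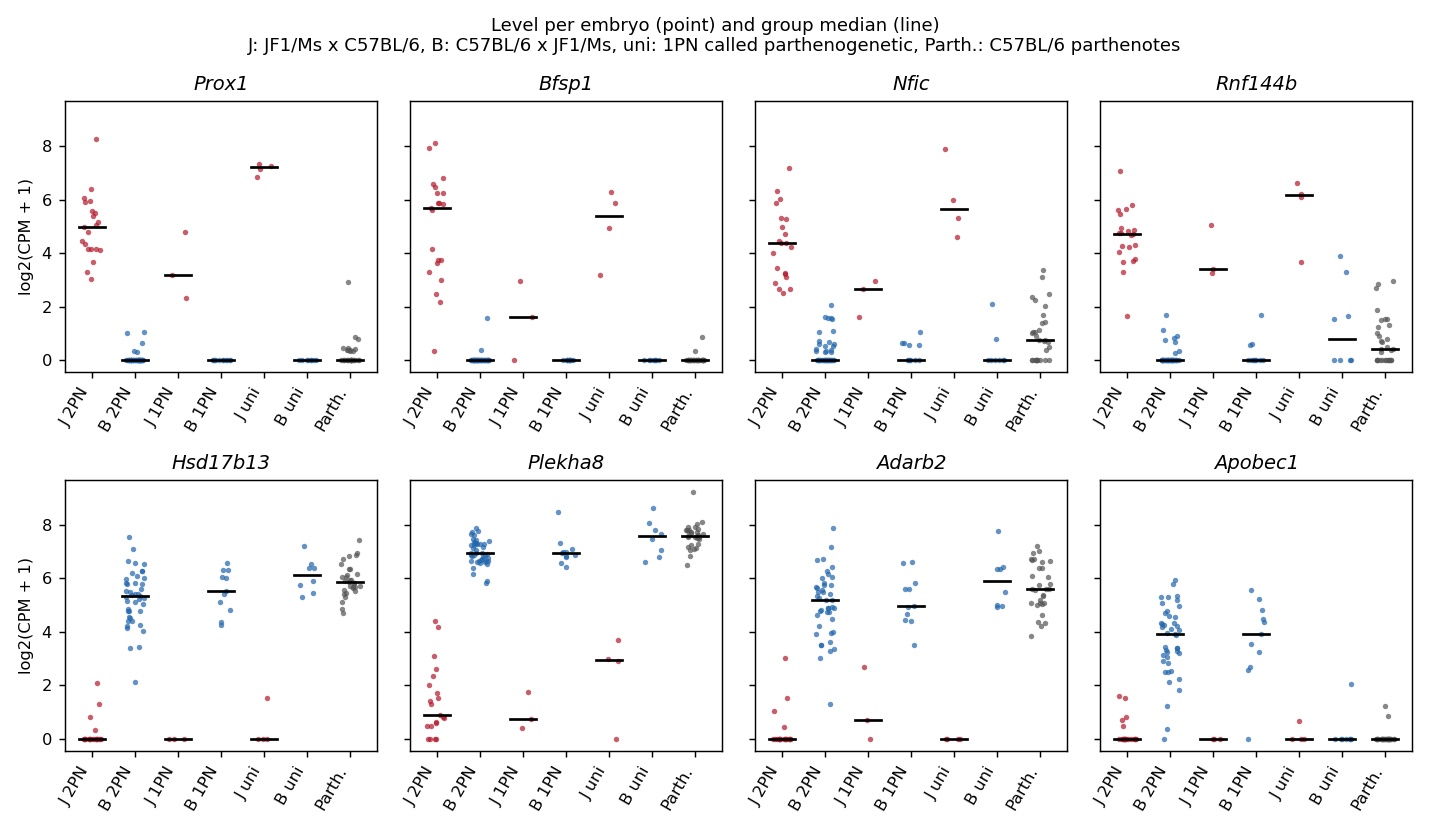
Level of 8 genes per embryo as log2(CPM + 1) (vertical axis) in 7 groups (horizontal axis), where each point is an embryo and each line a group median. Prox1, Bfsp1, Nfic and Rnf144b are high in J2PN embryos (medians of 19.7 to 49.9 CPM) and near 0 in B2PN embryos, Hsd17b13, Plekha8 and Adarb2 the reverse, and Apobec1 is high in B2PN and B1PN embryos but has a median of 0 CPM in embryos called parthenogenetic.

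Complete separation was rare. All J2PN embryos lay above all B2PN embryos at 14 genes and below at 14 genes, of 14392 tested with 41.8% called. Besides Prox1, Nfic, Hsd17b13 and Plekha8, the named protein-coding genes among them, picked out after their values were seen, were Csf1r, the receptor of colony stimulating factor 1 (8.54, 25.6 and 137 CPM in J2PN and 0.532, 3.43 and 7.83 CPM in B2PN embryos), Tm2d3 (0, 31.3 and 85.2 CPM against 99.8, 264 and 1046 CPM) and Fars2, the mitochondrial phenylalanyl-tRNA synthetase (0, 11.7 and 68.4 CPM against 77.9, 141 and 422 CPM). Most of the others were mitochondrial genes or unnamed gene models.

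Genes of the mitochondrial genome differed in both directions. Its 13 protein genes encode subunits of the respiratory chain and ATP synthase, and mitochondria come from the egg. In genome order, mt-Co2, mt-Atp8, mt-Atp6 and mt-Co3, which lie next to one another, were higher in J2PN embryos, and mt-Nd2, mt-Co1, mt-Nd3, mt-Nd4l, mt-Nd5, mt-Nd6 and mt-Cytb were lower, so 4 rose and 7 fell of 13. The subunits of cytochrome oxidase did not move together: mt-Co2 and mt-Co3 rose while mt-Co1 fell. mt-Co2 had 167, 1054 and 3866 CPM in J2PN and 48.3, 104 and 214 CPM in B2PN embryos (log2 fold change 3.55 ± 0.16, edgeR, adjusted p = 2.28e-29), and 1 J2PN embryo, number 8, lay within the B2PN range. mt-Atp6 had 178, 969 and 4144 CPM against 45.2, 106 and 287 CPM in B2PN embryos (3.29 ± 0.19). mt-Co3 (2.57 ± 0.17) and mt-Atp8 (1.23 ± 0.20) rose less. At the other end, mt-Nd4l had 5.81, 18.6 and 46.6 CPM in J2PN and 387, 611 and 913 CPM in B2PN embryos (-4.71 ± 0.19, adjusted p = 7.04e-33), and mt-Nd3 had 4.49, 31.3 and 97.5 CPM against 252, 464 and 865 CPM (-3.69 ± 0.21), both without overlap. The arginine tRNA gene mt-Tr, which lies between these genes, was at -5.00. Smaller falls were measured for mt-Nd2 (-1.87), mt-Co1 (-1.42), mt-Nd5 (-1.23), mt-Cytb (-0.71) and mt-Nd6 (-0.50). mt-Nd1 (-0.33, adjusted p = 0.114) and mt-Nd4 (-0.37, adjusted p = 0.0760) did not pass the edgeR test, and in libraries of at least 2000000 counts both were lower, at -0.72 and -0.90.

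**Figure D3:**
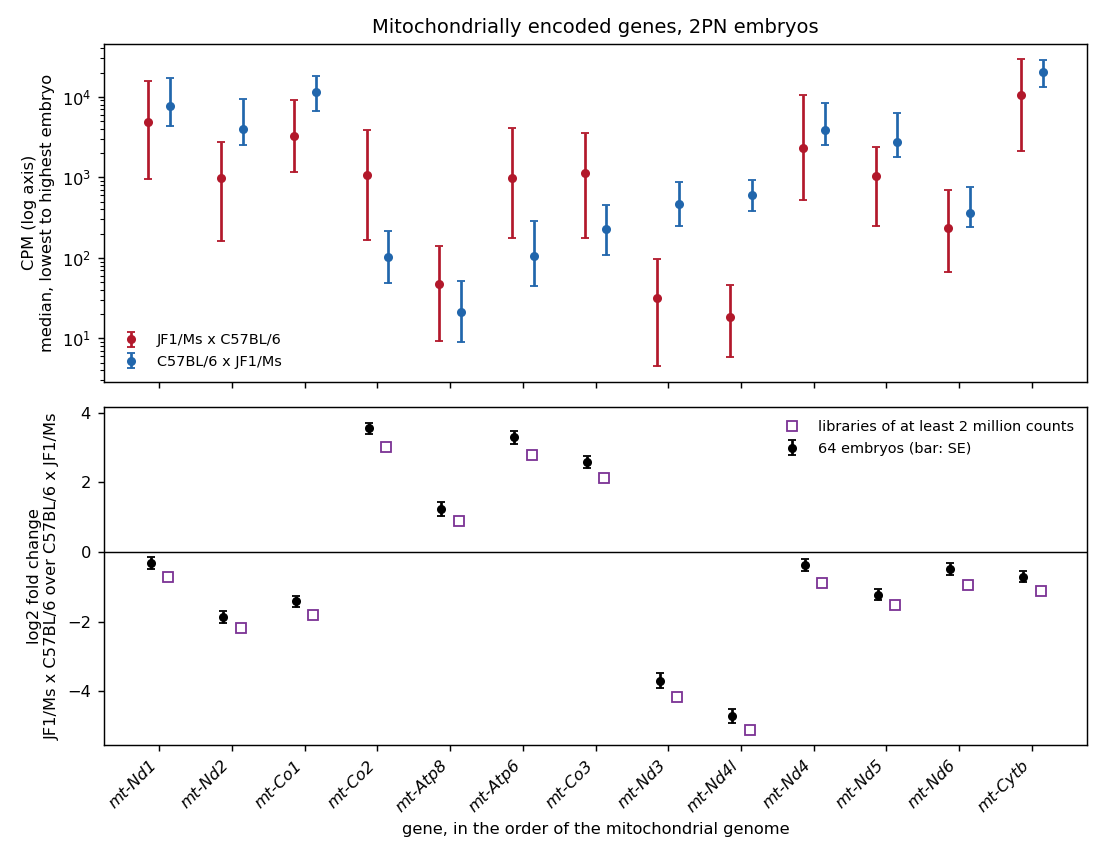
The 13 mitochondrially encoded protein genes in genome order (horizontal axis). The upper panel gives the median and the lowest to highest embryo in CPM on a log axis, J2PN left of B2PN, and the lower panel the log2 fold change with its SE in 64 embryos and the value in libraries of at least 2000000 counts. The run of mt-Co2 to mt-Co3 lies above 0, at 1.23 to 3.55, and is followed at once by mt-Nd3 and mt-Nd4l at -3.69 and -4.71.

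These values carry a limit of counting, because mitochondrial sequence also lies in nuclear copies that can share its reads. RefSeq places 2 pseudogenes side by side on chromosome 1. Gm10222, at 24612404 to 24612700, had 71.6, 363 and 998 CPM in J2PN and 4.18, 10.3 and 29.2 CPM in B2PN embryos (log2 fold change 5.31 ± 0.20). Gm10925, at 24613971 to 24614651 and listed with Atp6 among its synonyms, was at 2.03 ± 0.19. A further set of gene models, picked out after their values were seen as at least 16-fold higher with a J2PN median of at least 300 CPM, has Gm10222 and 6 models that matched no RefSeq gene, so no role is given to them. The most abundant, Gm13340, had 4233, 13827 and 37170 CPM in J2PN and 5.06, 12.1 and 28.97 CPM in B2PN embryos. The 7 models held a median of 2.73% of all counts in J2PN embryos and 0.0192% in B2PN embryos. The 37 mitochondrially encoded genes held 3.72% and 6.23%, and both sets together 6.404% and 6.25%. The same sums were 4.54% in J1PN and 6.33% in B1PN embryos. Whether these models share reads with mitochondrial genes was not tested. Reads of both crosses were aligned to the same reference, GRCm38. Whether reads of JF1/Ms sequence aligned to it as well as reads of C57BL/6 sequence was not tested, for these genes or for others. The share of the 13 protein genes alone averaged 3.17% ± 1.87 in J2PN and 5.31% ± 1.10 in B2PN embryos (SD, n = 21 and 43; permutation test, 2-sided, adjusted p = 2.5e-05). The call on this share was lost in the 5 J2PN and 14 B2PN libraries of the second of 2 runs of accessions in which the series lists its libraries, at a difference of -1.20 points.

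The mitochondrial pattern was also found in embryos outside the 2PN comparison. Median mt-Co2 was 673 CPM in J1PN embryos and 1105 CPM in J1PN embryos called parthenogenetic, against 91.7 CPM in B1PN embryos, 117 CPM in B1PN embryos called parthenogenetic and 139 CPM in C57BL/6 parthenotes. Median mt-Nd4l was 14.1 and 22.8 CPM in the same J groups, against 688, 828 and 755 CPM. C57BL/6 parthenotes, whose egg is C57BL/6, thus had levels of the B2PN kind.

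Imprinted genes are expressed from the allele of 1 parent, and the reciprocal crosses exchange which strain supplies it. Of 27 tested members of a list of paternally expressed genes, 8 were higher and 5 lower in J2PN embryos (29.6% and 18.5%, against 20.6% and 21.2% of all genes), with a median of -0.30 beside -0.04 over all genes. The neighbours Snrpn, a splicing protein gene, and Snurf, its upstream reading frame, together with Snhg14, their long non-coding host, rose as a block on chromosome 7. Snrpn had 48.8, 379 and 532 CPM in J2PN and 2.37, 75.4 and 150 CPM in B2PN embryos (log2 fold change 2.24 ± 0.17, edgeR, adjusted p = 5.49e-18), and the J2PN median lay above the highest B2PN embryo. Snurf was at 2.14 ± 0.21 and Snhg14 at 1.89 ± 0.25, and since the 3 overlap their reads may be shared. Kcnq1ot1, the non-coding RNA that silences a cluster on chromosome 7 in cis, rose by 2.57 ± 0.42, Zdbf2 by 1.93 ± 0.38 and Gnas by 1.17 ± 0.35, the last 2 of them imprinted genes of chromosomes 1 and 2. Plagl1, a zinc finger regulator of growth, fell (-2.77 ± 0.62), as did Platr20 (-1.39 ± 0.52), Myo10, an unconventional myosin (-1.28 ± 0.22), Usp29 (-1.16 ± 0.33) and Etv6 (-0.89 ± 0.33). The calls of Usp29, Etv6, Gnas and Mest were lost in libraries of at least 2000000 counts, where 6 of 27 were higher and 3 lower, and Gnas stood at -0.10 with voom.

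Maternally expressed imprinted genes were split evenly, with 3 higher and 3 lower of 16 tested (18.8% each way, near the shares of all genes) and a median of -0.40. Th, tyrosine hydroxylase, was at 2.05 ± 0.35, Trappc9 at 1.43 ± 0.27 and Ppp1r9a at 0.85 ± 0.23. Phlda2, which restrains placental growth, was at -1.62 ± 0.42, the receptor Igf2r, which clears insulin-like growth factor 2, at -0.82 ± 0.27 and the histone chaperone Nap1l4 at -0.54 ± 0.16. In libraries of at least 2000000 counts Igf2r (-0.46) and Nap1l4 (-0.33) did not pass the test, and with voom Trappc9 (0.58) did not. In the second run of accessions alone Phlda2 was at 0.03. With voom 2 of the 16 genes were higher and 7 lower (12.5% and 43.8%, against 14.9% and 27.5% of all genes). Without the libraries that stand apart these were 3 and 6 (18.8% and 37.5%, against 19.3% and 22.5%). Proteins that write, read or protect imprints, 26 tested, gave 6 higher and 5 lower (23.1% and 19.2%, again near the shares of all genes) with a median of -0.03. Tet3, the oxidase of methylcytosine in zygotes, rose by 1.31 ± 0.19, and the methyl-CpG binding protein Mbd2 by 1.77 ± 0.32. Dnmt3c, a methyltransferase of rodents (-1.96 ± 0.49), Dnmt3l, its cofactor family member (-1.13 ± 0.22), and Zfp57, a zinc finger protein that guards imprints (-0.62 ± 0.22), fell. With voom 5 of these 26 genes were higher and 10 lower (19.2% and 38.5%, against 14.9% and 27.5% of all genes).

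Transcripts of the 2-cell stage leaned to higher levels in J2PN embryos. Of 56 tested, 24 were higher and 2 lower (42.9% and 3.57%, against 20.6% and 21.2% of all genes), with a median of 0.41. Usp17la, a deubiquitinase of a family specific to this stage, was highest at 3.48 ± 0.49, with 1.86, 44.3 and 817 CPM in J2PN and 0.259, 9.50 and 217 CPM in B2PN embryos. Tcstv3 (1.61 ± 0.28), AF067061 (1.70 ± 0.32) and the zinc finger gene Zfp352 (1.17 ± 0.23) followed, while the oocyte-type homeobox gene Obox7 (-1.09 ± 0.25) and Pramel7 (-0.68 ± 0.20) fell. In libraries of at least 2000000 counts 16 were higher and 4 lower (28.6% and 7.14%, against 17.8% and 17.4% of all genes), with a median of 0.23. Within each group the level of this list was lower in deeper libraries (rho with total counts of -0.49 in J2PN and -0.39 in B2PN embryos). The part of depth in the lean was not tested. Zscan4d, of the telomere-linked Zscan4 family, was at 1.60 ± 0.38 in 64 embryos and at 0.02 in those libraries, and Duxf3, the mouse Dux gene that activates many of the others, at 1.57 ± 0.39 and 0.37, and neither passed the test there. The Usp17l, Zscan4 and Obox genes are families of near copies whose reads the counting may have split.

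Stored oocyte transcripts went both ways, with 20 higher and 24 lower of 81 tested (24.7% and 29.6%, against 20.6% and 21.2% of all genes) and a median of -0.06, beside -0.04 over all genes. The germ cell RNA helicase Ddx4 fell most, with 0, 5.3997 and 58.4 CPM in J2PN and 16.6, 120.5 and 261 CPM in B2PN embryos (-3.89 ± 0.41, edgeR, adjusted p = 4.00e-12). Zar1l, a relative of the zygote arrest protein (-2.63 ± 0.35), Rfpl4 (-2.31 ± 0.39), the zona protein Zp3 (-1.57 ± 0.23), the germ cell RNA-binding protein Dazl (-1.42 ± 0.31) and the deadenylation adaptor Btg4 (-1.37 ± 0.27) fell as well. Pabpn1l, a poly(A)-binding protein of the oocyte (2.46 ± 0.51), the mRNA-masking protein Ybx2 (2.34 ± 0.31), Tuba1c (1.86 ± 0.26), Zp2 (1.28 ± 0.25) and the maternal-effect gene Nlrp5 (1.26 ± 0.22) rose. The zona genes Zp2 and Zp3 thus changed in opposite directions. With at least 2000000 counts 13 were higher and 25 lower (16.05% and 30.9%, against 17.8% and 17.4% of all genes), and with voom 12 and 37 (14.8% and 45.7%, against 14.9% and 27.5%).

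**Figure D4:**
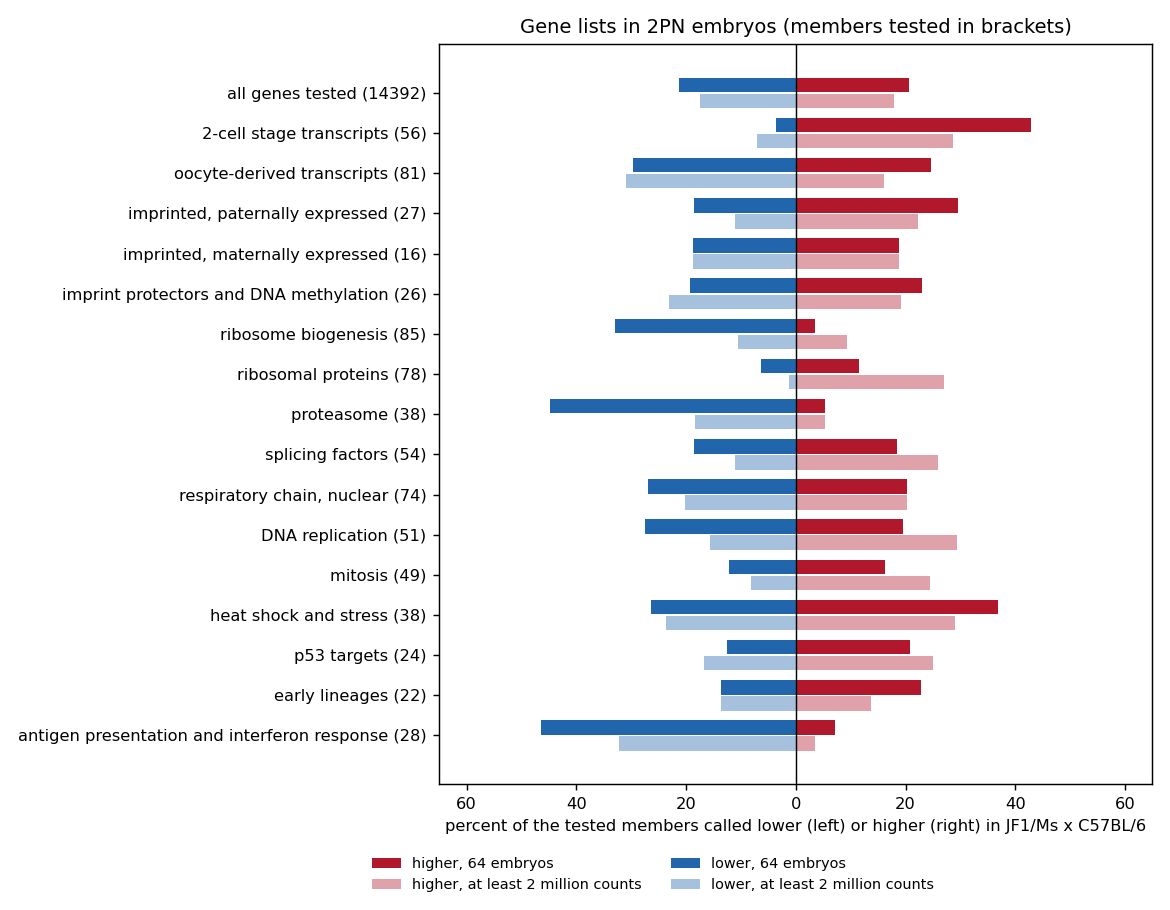
Percent of the tested members of each gene list called lower (left) or higher (right) in J2PN embryos (horizontal axis), for 64 embryos and for libraries of at least 2000000 counts, with all genes tested as the first row. 2-cell stage transcripts lean to the right in both fits (24 and 16 of 56 higher), and antigen presentation leans to the left in both (13 and 9 of 28 lower), whereas the shares lower of ribosome biogenesis (28 and 9 of 85) and the proteasome (17 and 7 of 38) stand well above that of all genes in the fit of 64 embryos and not in the deeper libraries.

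Genes of ribosome production, of the proteasome and of antigen presentation leaned to lower levels in J2PN embryos, and for the first 2 of these lists the share lower was below or near that of all genes in the deeper libraries. Ribosome biogenesis had 3 of 85 tested genes higher and 28 lower (3.53% and 32.9%, against 20.6% and 21.2% of all genes), with a median of -0.27. In libraries of at least 2000000 counts 8 were higher and 9 lower (9.41% and 10.6%, against 17.8% and 17.4% of all genes), with a median of -0.06. Within each group the level of this list was higher in deeper libraries (rho with total counts of 0.53 in J2PN and 0.25 in B2PN embryos). Polr1e, a subunit of RNA polymerase I, had 0, 95.6 and 358 CPM in J2PN and 145, 470 and 686 CPM in B2PN embryos (-1.57 ± 0.28), and the ribosome assembly factor Nob1 was at -1.35 ± 0.24. Rrn3, the initiation factor of the same polymerase (0.68 ± 0.14), its subunit Polr1b (0.40 ± 0.15) and Nop56 (0.50 ± 0.14) rose. In 6 J2PN embryos the list had a mean level below that of every B2PN embryo, while the other J2PN embryos overlapped with them. Ribosomal proteins themselves were 9 higher and 5 lower of 78 (11.5% and 6.41%, both under the shares of all genes), and 21 higher and 1 lower (26.9% and 1.28%) at 2000000 counts or more. Proteasome subunits and chaperones were 2 higher and 17 lower of 38 (5.26% and 44.7%) with a median of -0.50. In the deeper libraries 2 were higher and 7 lower (5.26% and 18.4%, against 17.8% and 17.4% of all genes) with a median of -0.14. The core subunit Psma4 was at -0.90 ± 0.18 and the regulatory subunits Psmd5 and Psmd12 at -0.84 ± 0.15 and -0.86 ± 0.19, with each of these 3 also lower in the deeper libraries.

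Antigen presentation and interferon genes leaned to lower levels in the deeper libraries too. Of 28 tested, 2 were higher and 13 lower (7.14% and 46.4%, against 20.6% and 21.2% of all genes) with a median of -0.70. In libraries of at least 2000000 counts these were 1 and 9 (3.57% and 32.1%, against 17.8% and 17.4%) with a median of -0.59, and without the libraries that stand apart 1 and 14 of 27. Ifi35, an interferon-induced protein, had 0, 15.9 and 92.7 CPM in J2PN and 11.9, 82.7 and 190 CPM in B2PN embryos (-1.90 ± 0.36, edgeR, adjusted p = 1.43e-05). The immunoproteasome subunit Psmb10 was at -1.67 ± 0.39, the class I heavy chain H2-K1 at -1.32 ± 0.32 and the interferon signal transducer Stat2 at -1.22 ± 0.23. Isg15, an interferon-induced ubiquitin-like modifier (1.73 ± 0.53), and H2-T24 (1.54 ± 0.45) rose, and H2-T24 stood at 0.01 in the deeper libraries. The class II gene H2-Ab1, which was kept in the list of blood and immune markers, was also higher (2.46), with 0, 3.48 and 111 CPM in J2PN and 0, 0.442 and 36.7 CPM in B2PN embryos, and did not pass the test in the deeper libraries (1.33, edgeR adjusted p = 0.154) or in the first run of accessions (1.48, edgeR adjusted p = 0.150). The mean level of the 28 genes lay below the B2PN median in 21 of 21 J2PN embryos and below every B2PN embryo in 9. H2 genes are a family of near copies that differ between strains, so their values are uncertain.

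The other lists went both ways, beside 20.6% higher and 21.2% lower of all genes. Nuclear genes of the respiratory chain had 15 higher and 20 lower of 74 (20.3% and 27.03%, median -0.07): Cyc1, cytochrome c1, fell by 2.17 on the log2 scale and Cox7c, a small subunit of cytochrome oxidase, rose by 1.88. DNA replication had 10 higher and 14 lower of 51 (19.6% and 27.5%, median 0.04), with the ribonucleotide reductase subunit Rrm2 at 1.42 ± 0.19 and the histone chaperone Asf1b at -1.01 ± 0.17. Mitosis genes were 8 higher and 6 lower of 49 (16.3% and 12.2%, median -0.04), among them Fzr1, an activator of the anaphase-promoting complex (2.23 ± 0.35), and the kinase Aurkb (-1.40 ± 0.27). Splicing factors were 10 higher and 10 lower of 54 (18.5% each way, median 0.06), with Srsf2 at 1.30 ± 0.16. Heat shock and stress genes were 14 higher and 10 lower of 38 (36.8% and 26.3%, median 0.23). Hmox1, heme oxygenase 1 (2.16 ± 0.51), and Hsf1, the master regulator of heat shock genes (1.47 ± 0.20), rose, while Gpx1, glutathione peroxidase 1, fell (-1.77 ± 0.29). Targets of p53 were 5 higher and 3 lower of 24 (20.8% and 12.5%, median 0.23), led by Eda2r, a receptor of ectodysplasin on the X chromosome (3.69 ± 0.66), with the cell cycle inhibitor Cdkn1a lower (-1.11 ± 0.36).

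Genes of the early lineages were 5 higher and 3 lower of 22 (22.7% and 13.6%, median 0.13). Yap1, a Hippo pathway co-activator (1.19 ± 0.19), and Sox15 (1.39 ± 0.30) rose, and the growth factor gene Fgf4 (-1.76 ± 0.29), the zinc finger gene Zscan10 (-2.15 ± 0.59) and the nuclear receptor gene Esrrb (-1.04 ± 0.30) fell. Pou5f1, the pluripotency factor Oct4, passed the edgeR test at 2.71 ± 0.47, but its levels were 0, 4.34 and 654 CPM in J2PN and 0.548, 6.76 and 20.5 CPM in B2PN embryos. Its J2PN median was the lower of the 2 medians, and voom, which lowers the weight of libraries that stand apart, gave -0.21. Of 6 tested genes with known strain variants, the insulin-degrading enzyme gene Ide was higher (0.93 ± 0.25), and Nlrp12 (-0.80 ± 0.27) and Wdfy1 (-1.08 ± 0.43) were lower. Nlrp12 did not pass the test in libraries of at least 2000000 counts (-0.68, edgeR adjusted p = 0.0903), nor did Ide with voom (0.49, adjusted p = 0.132) or Wdfy1 with RLE size factors (-0.97, edgeR adjusted p = 0.0643). Of 6 tested genes listed because earlier results of these crosses had named them, 3 were higher and 2 lower: besides Prox1 and Bfsp1, Hip1, a clathrin adaptor, rose (1.65 ± 0.44), and Txndc8, a thioredoxin of the testis (-4.30 ± 0.42), and the neuropeptide gene Npy (-1.90 ± 0.58) fell, while Spz1 did not pass the test (-0.20, edgeR adjusted p = 0.5002).

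The differences were spread over all chromosomes. The share of tested genes called higher ran from 16.02% to 23.5% over the autosomes and that called lower from 17.3% to 24.8%, and on the X chromosome 86 genes were higher and 109 lower of 493. Among 77 neighbouring pairs that both changed at least 4-fold, 54 changed in the same direction and 23 in opposite directions, beside 52.7% of all neighbouring pairs with the same sign. Some of the 54 pairs overlap in position, such as Pakap and Akap2 or Snrpn and Snurf, and may share reads. A run of neighbours, such as Fthl17c, Fthl17d and Fthl17e, counts as more than 1 pair. Hsd17b13 and its neighbour Nudt9 (-2.23) were lower together on chromosome 5.

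The share of embryos with Y-linked counts did not pass a test between the groups. At least 50 summed counts of Y-linked genes were found in 8 of 21 J2PN embryos (38.1%, exact 95% interval 18.1% to 61.6%) and in 23 of 43 B2PN embryos (53.5%, interval 37.7% to 68.8%), with p = 0.294 by a 2-sided Fisher's exact test. Of the 7 tested members of a list of Y-linked genes, 0 were called with edgeR, DESeq2 or voom, and 1, the RNA helicase gene Ddx3y, had an unadjusted edgeR p under 0.05. Among the embryos with Y-linked counts Ddx3y averaged 21.4 ± 15.1 CPM in J2PN embryos (SD, n = 8) and 5.74 ± 4.43 CPM in B2PN embryos (SD, n = 23), a difference picked out after its values were seen and not tested. Altogether 10 genes annotated on chromosome Y were tested, and 2 gene models outside the list were higher. Gm20826 had 2.61, 6.94 and 39.4 CPM in J2PN and 0, 0.346 and 1.43 CPM in B2PN embryos (4.36 ± 0.30), and Gm20775 was at 1.56 ± 0.28. Both had counts in most embryos of either group, 21 and 20 of 21 J2PN and 36 and 42 of 43 B2PN embryos, and whether they share reads with copies elsewhere was not tested. The embryos held the markers of their stage: every oocyte-derived transcript in the table had counts in both groups, and of 57 transcripts of the 2-cell stage Sbp alone was at 0, in J2PN embryos.

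Markers of other cells were present at various levels, with few members tested and calls in both directions. Summed cumulus and granulosa markers were between 3.97 and 177 CPM in J2PN embryos and between 2.83 and 100.2 CPM in B2PN embryos, with medians of 25.01 and 21.6 CPM. Of 4 tested, Pfkp was higher and Kitl lower, and the defining receptor Fshr was at 0 in both groups. Sperm and testis markers had medians of 253 CPM in J2PN and 208 CPM in B2PN embryos, with Odf2 higher (1.62) and Ldhc lower (-2.16) of 6 tested and the transition protein genes Tnp1 and Tnp2 at 0 in J2PN embryos. Blood and immune markers had medians of 59.1 CPM in J2PN and 34.3 CPM in B2PN embryos, with H2-Ab1 higher and Hba-a1 lower (-2.11) of 4 tested, 0 higher and 1 lower in the deeper libraries, and albumin at 0 in both. Of the ovary and oviduct markers, with medians of 303 CPM in J2PN and 364 CPM in B2PN embryos and mostly from Epcam, 0 of 2 tested were called with edgeR, DESeq2 or voom, nor had either an unadjusted edgeR p under 0.05. Their part in the results above was not tested.

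Embryos with a single pronucleus (1PN), which took no part in the choice of genes, gave the same direction for most of them. In a fit of the means of 7 groups, J1PN was set against B1PN (3 and 11 embryos). The 1PN embryos called parthenogenetic in silico by the submitters were also set against each other, J against B (4 and 8 embryos). By that call they have no paternal genome, so this second contrast does not compare reciprocal hybrids. Its J and B embryos would differ in the strain of their whole genome as well as of the egg. Of the 6016 genes called in 2PN embryos, 79.5% had the same sign between J1PN and B1PN, against 59.1% of the genes not called, and 81.2% between the embryos called parthenogenetic, against 61.3%. Genes lower in J2PN kept their sign more often than genes higher, at 87.2% and 71.5% in 1PN embryos, and the median of all genes in that contrast was itself -0.42. Of the 140 genes with at least 16-fold changes, 139 had the same sign in 1PN embryos and 132 in embryos called parthenogenetic. In 1PN embryos all 24 of the genes with the largest changes kept their sign and 20 passed the test, beside 3.64% of all genes tested there (edgeR quasi-likelihood, Benjamini-Hochberg). Mean Prox1 was 12.9 CPM in J1PN and 142 CPM in J1PN embryos called parthenogenetic, against 0 CPM in both B1PN groups and 0.338 CPM in C57BL/6 parthenotes. Mean Plekha8 was 1.12 and 6.33 CPM in the J groups, against 140.5 and 201 CPM in the B1PN groups and 203 CPM in parthenotes. For both genes the parthenotes, with C57BL/6 as their only strain, had the level of the B groups.

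**Figure D5:**
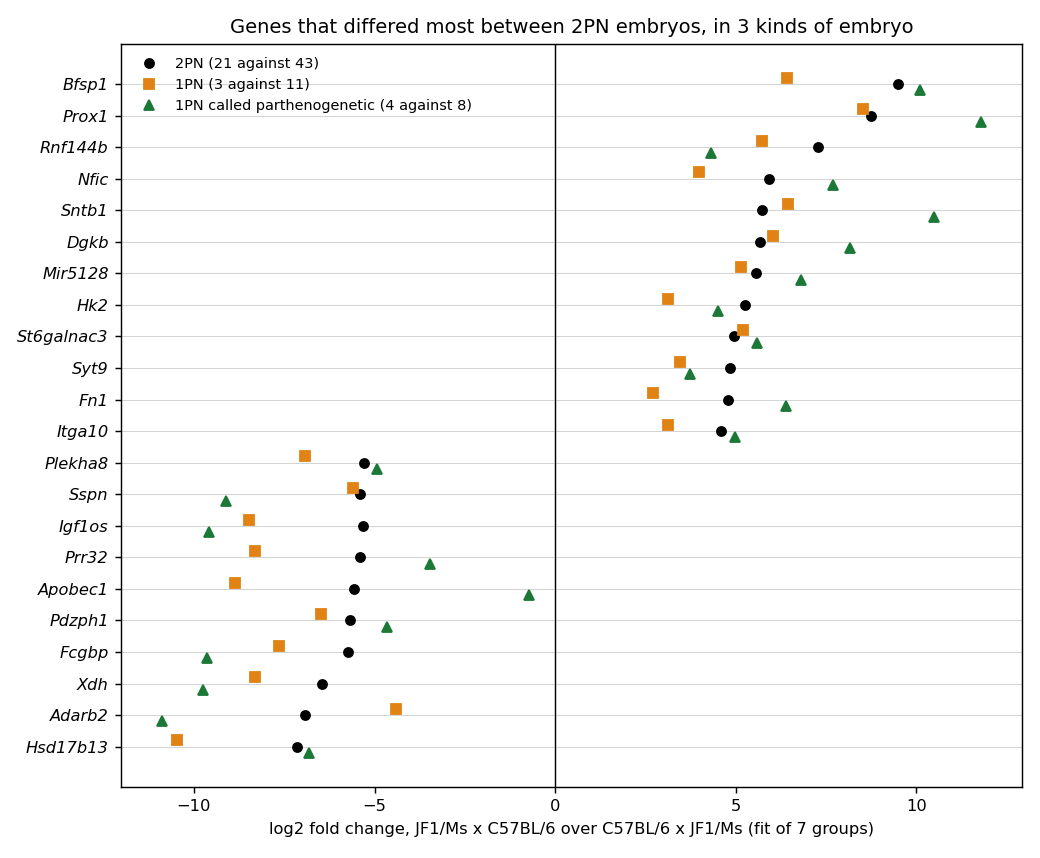
Log2 fold change between the crosses (horizontal axis, JF1/Ms x C57BL/6 over C57BL/6 x JF1/Ms, fit of 7 groups) of 22 of the 24 genes with the largest changes (vertical axis), with a symbol each for 2PN embryos, for those with 1 pronucleus and for those of the last kind called parthenogenetic. The 3 symbols lie on the same side of 0 for every gene drawn. Values against groups without counts depend on the prior count of the fit.

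Some genes high in B2PN embryos were not high in all embryos of that cross. Apobec1, Trdv2-2 and Txndc8 had medians of 14.04, 9.14 and 13.8 CPM in B2PN and 14.1, 9.96 and 16.3 CPM in B1PN embryos, but 0 CPM in B1PN embryos called parthenogenetic and in C57BL/6 parthenotes. Npy had a median of 241 CPM in J1PN embryos called parthenogenetic, against 0 CPM in B1PN embryos called parthenogenetic, the reverse of its order in 2PN embryos (0 CPM in J2PN and 38.6 CPM in B2PN). The difference between the 2PN contrast and the contrast of embryos called parthenogenetic was -13.82 for Npy and -12.15 for Txndc8 (interaction term, edgeR, adjusted p of 3.12e-10 and 5.33e-15). Spz1, a testis-linked transcription factor without a call in 2PN embryos, had 0 counts in all 4 J1PN embryos called parthenogenetic and a median of 49.5 CPM in B1PN embryos called parthenogenetic. Such differences between contrasts passed the test for 4052 of 24380 genes against embryos called parthenogenetic and for 5 genes against 1PN embryos, where the J group had 3 embryos and 2899 genes had an unadjusted p under 0.05. Hsd17b13, Plekha8, Xdh and Adarb2, in contrast, were high in every group of the B cross and in C57BL/6 parthenotes. By group means of log2(CPM + 1), the parthenotes lay nearer to B2PN than to J2PN embryos at most genes with large changes. These were 37 of 40 genes at least 16-fold higher and 33 of 43 genes at least 16-fold lower, with a mean of at least 10 CPM.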

How the data were processed

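RNA of single embryos was counted per gene. The authors deposited 1 table of estimated counts for 43421 gene identifiers and 125 libraries; reads were aligned with HISAT2 2.0.5 and counted with featureCounts 2.0.0 on GRCm38, per the submitters' processing notes. No source used here gives the annotation release or the use of strand. Of the values above 0, 28.4% were not whole and were rounded. Symbols were found for 43266 identifiers, and 32380 matched RefSeq GRCm38.p6. J2PN and B2PN embryos were compared with edgeR 4.0.16 (R 4.3.3; filterByExpr, TMM, quasi-likelihood test, Benjamini-Hochberg adjustment over all 14392 genes). On simulated counts for the 14392 genes, with 200 genes changed, 39% were recovered at 2-fold and 85% at 4-fold, and 4.62% of calls were unchanged genes. Far more genes were called in the embryos than were changed there, so these rates do not carry over to the comparison. Alternatives used limma 3.58.1, DESeq2 1.42.0, other filters and scalings, thinning and subsets of libraries. Permutation tests used 100000 resamples, and a p of 2e-05 is the smallest they can give. No 2 libraries of a group agreed within sampling noise, with chi-square values per gene of 17.02 or more.

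The genes named first were the 12 largest increases and the 12 largest decreases that averaged 10 CPM or more in whichever group was higher, with detection in a share of at least 0.5 of its embryos and the same call in edgeR, at 2000000 counts or more and in voom. To these were added up to 4 members of each of 24 lists with the smallest p; other list members were picked after their values were seen. The members and lists were chosen with earlier results of these data known. Libraries labelled low quality or dead were left out. Intervals and floors cover counting error only, and library totals limit precision for genes of few counts. A few genes that met these rules are not reported here.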

Additional observations from a re-analysis of the deposited data

Results flagged for a closer look

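For 23 of the genes with the largest changes, 46 combinations of a gene and a group outside the 2PN comparison were examined. In 7 of them an embryo lay far from the others of its group. In J1PN embryos called parthenogenetic these were embryos at 292 CPM for Itga10, 1.86 CPM for Hsd17b13, 0.568006 CPM for Apobec1 and 13.97 CPM for Prr32. In B1PN embryos called parthenogenetic they were embryos at 3.23 CPM for Nfic, 3.18 CPM for Apobec1 and 0 CPM for Igf1os. Several of these values lie near 0 CPM, where few counts decide them. How often chance gives such an embryo was not tested.

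The change from B to J groups differed between 2PN embryos and embryos called parthenogenetic for 1 of these 23 genes (46 interaction tests, edgeR quasi-likelihood, adjusted over all genes). Sntb1 gave a difference of -4.74 (adjusted p = 0.0231), with the same direction in both kinds of embryo.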

How the results depend on the processing

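Against 2964 genes higher and 3052 lower of 14392 tested, 6848 and 6178 of 38794 were called without a filter on low counts (2500 and 3169 among the same 14392), 4664 and 5146 of 24380 with all 7 groups fitted together (2680 and 3351 among the same 14392), and 799 and 770 in the second run of accessions alone (5 J2PN and 14 B2PN embryos); thinning to equal depth left 1463 lower. Replicate numbers did not pair the embryos: over 21 same-numbered pairs the median correlation of deviations was 0.049, 3 pairs were over 0.1, and 1 embryo correlated best with its own number. With the replicate block 1305 genes were higher and 2246 lower of 12483 tested; in the same embryos with no block 1820 were lower and 2249 higher. Of settings computed for the 24 genes with the largest changes, 358 kept direction and call and 1 lost its call, Sspn in the second run of accessions. The choice of these genes required the same call at 2000000 counts or more and in voom, so those settings could not fail. Most other settings refit the same embryos, so the tally is no independent check. Pou5f1 changed sign with voom (-0.21), with the block (-0.00879) and in the second run of accessions (-0.91), Rrm2b with voom (-0.0188) and in that run (-0.0297), and Phlda2 in that run (0.0338). The mitochondrially encoded share lost its call there (-1.20 points). The share of the 50 most counted genes, 16.98% in J2PN and 15.6% in B2PN embryos, differed by -0.582 points in libraries of at least 2000000 counts and by 1.35 points without the libraries that stand apart, where it passed the test (permutation p = 0.0370). The causes were not tested. DESeq2 tested 24416 genes; over the 14392 genes above it moved the median by 0.02 on the log2 scale.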
